A study of Mus musculus with 4 samples.

Results

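The genes described here are those whose symbol starts with Psm, a letter from a to g and a digit, in the gene tables of mouse Achilles tendon after tenotomy or a sham operation. The rule takes 49 of the 23352 entries in the tables. They comprise 7 alpha and 7 beta subunits of the proteasome core, 3 immunoproteasome subunits, 6 ATPase and 11 non-ATPase subunits of the regulatory cap, 4 activator genes, the inhibitor gene Psmf1, 3 cap assembly chaperones and 4 core assembly chaperones. Also taken were 2 core subunits known from other tissues (Psma8 and Psmb11), and Psmc3ip, whose symbol fits the rule although its product is a meiotic recombination protein and not a subunit.

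All animals were male mice homozygous for Scx-EGFP, a transgene that makes cells expressing the tendon transcription factor Scx fluorescent, on a C57BL/6 background. The Achilles tendon of the right hindlimb was cut (tenotomy) and the left hindlimb had a sham operation, at 7 days or at 6 months of age, and RNA was taken 5 days later. The growth protocol in the labels says that of each cut tendon the distal stump alone was collected, freed of connective tissue. The treatment labels of all 4 libraries, those of tenotomy included, instead call the tendons used for RNA uninjured. The sources used here do not settle which holds, and the libraries are called tenotomy and sham here by the operation those same labels name. Pools held the RNA of 11 mice for the 7-day sham library, 11 for the 7-day tenotomy library, 5 for the 6-month sham library and 9 for the 6-month tenotomy library. The labels do not say whether both limbs of a mouse were used. Each of the 4 groups is thus 1 library, the animals' own spread is unknown, and no difference below has a replicate check or a test.

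The proteasome is the protease that degrades most ubiquitin-tagged proteins of the cell. Its barrel-shaped core is built from rings of alpha subunits, which form the gate, and rings of beta subunits, some of which carry the cutting sites, while the cap recognises ubiquitin chains, removes them and unfolds the substrate. Interferons and cells of the immune system bring in alternative catalytic subunits, the immunoproteasome, which favour the production of peptides for MHC class I molecules, and the transcription factor Nfe2l1 is known to raise the subunit genes together when proteasome activity is limiting.

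The 31 standard subunits (14 core, 17 cap) were expressed in all 4 libraries. In the levels as deposited most were slightly lower after tenotomy at both ages, most uniformly in the 17 cap subunits, which are those with a Psm name. With libraries scaled to a common sum without muscle genes and small RNAs, 27 of 31 were lower at 7 days and 20 at 6 months. In that scaling 7 of the 14 core subunits were higher at 6 months. Fewer cells rich in these mRNAs, less of the mRNA per cell and the scaling of the libraries cannot be told apart in these bulk samples. The immunoproteasome subunits went the other way. Their share of the catalytic subunit mRNA went from 8.10% to 13.2% at 7 days and from 4.37% to 12.4% at 6 months. Nearly every difference was smaller than 2-fold: 0 of 46 genes passed that limit at 7 days, and at 6 months Psmb8 and Psmb10 were higher and Psmb3 lower among 43 genes. Of all genes tested, 5.55% were higher and 10.3% lower by as much at 7 days, and 9.62% and 11.9% at 6 months.

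Levels are FPKM, fragments per kilobase of transcript scaled to the size of the library. Ratios are log2((tenotomy FPKM + 1)/(sham FPKM + 1)), which understates the differences of low genes, and they are given for genes with at least 5 FPKM in either library. The steps between low FPKM values gave about 2670000, 3260000, 1800000 and 2410000 fragments, in the order 7-day sham, 7-day tenotomy, then the same at 6 months. Intervals of a gene's ratio are 95% exact binomial intervals on the ratio without the added 1, from the approximate fragments per gene. Where a ratio between genes of a library is compared between libraries, the 95% interval is a normal approximation on the log2 scale from the same fragments. All intervals cover counting error only. Small structural RNAs took 24.6% to 47.3% of the FPKM in a library. The 14 mature muscle markers summed to 21955 and 45.2 FPKM at 7 days (sham, tenotomy) and to 47441 and 15238 FPKM at 6 months. All 14 muscle markers were lower after tenotomy at both ages. Because a large class of transcripts changes the FPKM of all others, the sign of a small ratio depends on the scaling, as given beside the results. All tendon markers were present. Scx stood at 24.8 (sham) and 23.3 FPKM (tenotomy) at 7 days and 15.9 and 5.70 FPKM at 6 months, and Tnmd, a tendon membrane protein, at 301.1 (sham) and 279 FPKM (tenotomy) at 7 days and 36.9 and 47.0 FPKM at 6 months.

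**Figure D1:**
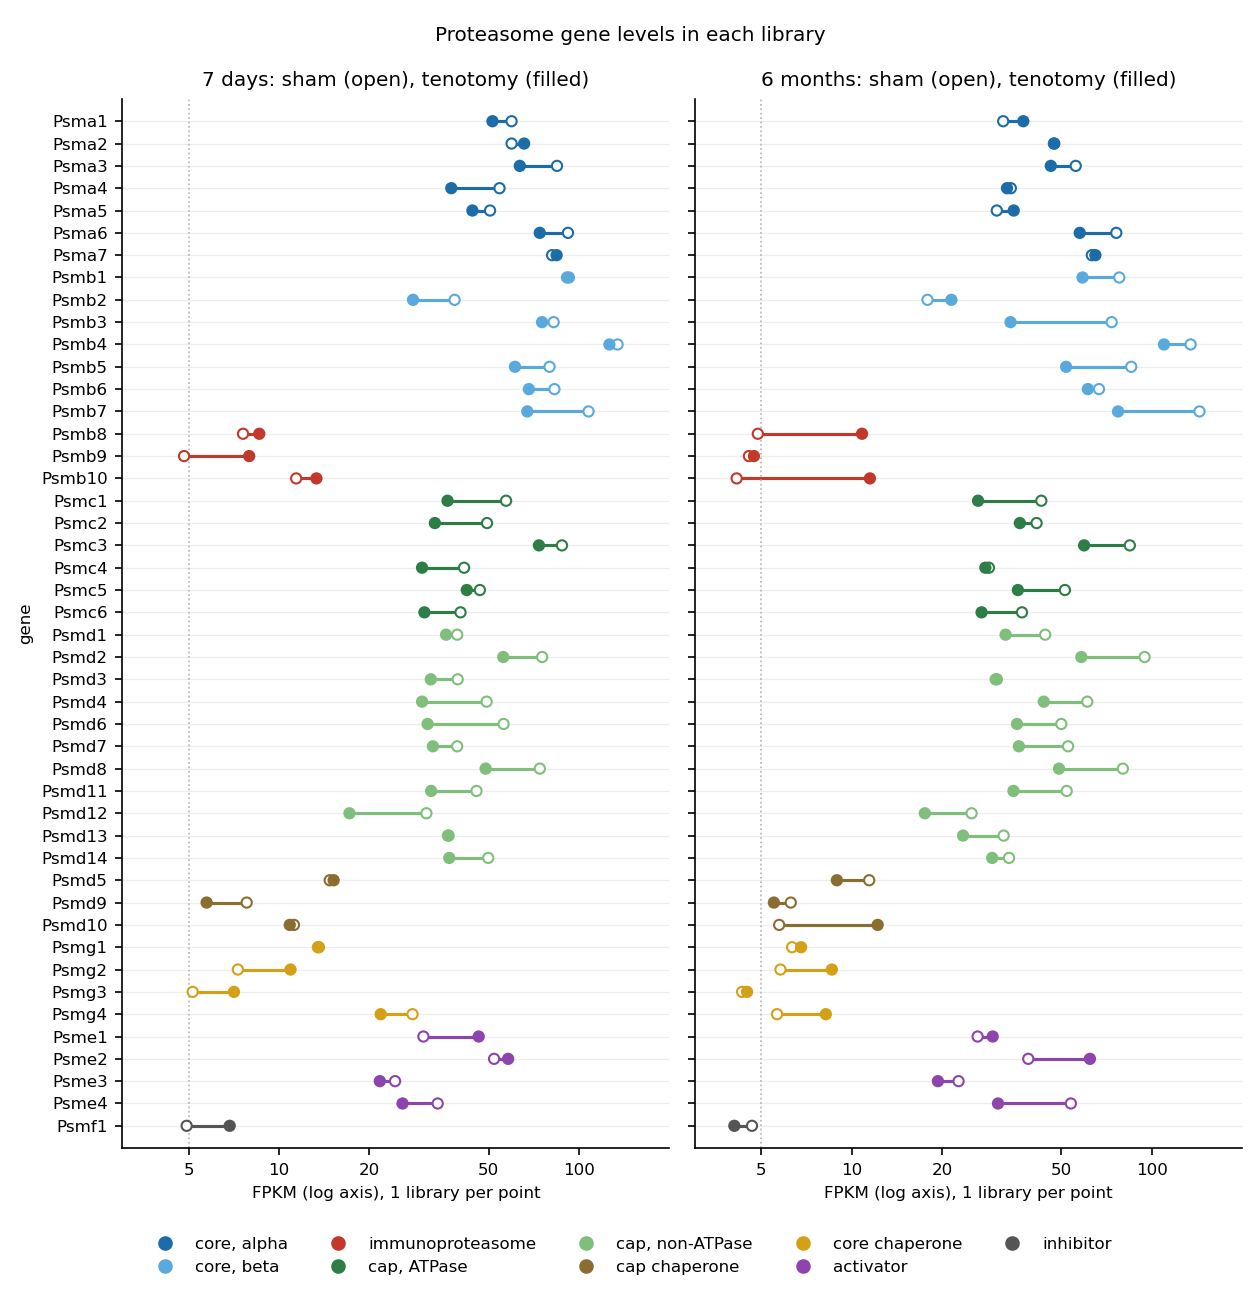
FPKM (log axis) of 46 proteasome genes in the 7-day (left) and 6-month (right) libraries, with the sham library as an open point, the tenotomy library as a filled point and a line joining them, coloured by role. Each point is 1 library and the dotted line is 5 FPKM. Standard core and cap subunits lie between 17.2 and 144 FPKM and mostly have the filled point on the left, while the immunoproteasome subunits lie between 4.14 and 13.3 FPKM with the filled point on the right.

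Among the standard subunits the order of the levels was largely kept between libraries. Over the 31 genes, Spearman's rho between the levels of sham and tenotomy was 0.885 at 7 days and 0.841 at 6 months. Between the ages it was 0.779 for the sham libraries and 0.781 for the tenotomy libraries, and Pearson's r on log2 levels was 0.848 to 0.921 over these 4 pairs. These genes share transcript length and mappability in every library, so the values describe the profile and are not a test. Psmb4 was the most abundant core subunit in 3 libraries and Psmb7 in the 6-month sham library, while Psmb2 was the least abundant in all 4. In the cap, Psmc3 was the highest ATPase, Psmd2 the highest and Psmd12 the lowest non-ATPase subunit in all 4 libraries. The 31 genes together made up 0.501% and 0.442% of the FPKM of ordinary genes, small structural RNAs left out, at 7 days (sham, tenotomy) and 0.449% and 0.429% at 6 months.

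The alpha subunits form the outer rings of the core and its gate. In FPKM as deposited they had the median log2 ratios nearest to 0 among the alpha, beta, ATPase and non-ATPase subunits. Their summed level was 481 and 419.9 FPKM at 7 days and 339 and 321 FPKM at 6 months (sham, tenotomy). Psma6 stood at 91.8 (sham) and 73.9 FPKM (tenotomy) at 7 days and 76.2 and 57.6 FPKM at 6 months, so that the tenotomy library was the lower at each age. Psma3 stood at 84.3 (sham) and 63.4 FPKM (tenotomy) at 7 days and 55.8 and 46.1 FPKM at 6 months, and Psma4 at 54.3 (sham) and 37.5 FPKM (tenotomy) at 7 days and 33.9 and 32.9 FPKM at 6 months. Both were lower after tenotomy, Psma4 only narrowly at 6 months. Psma7 stood at 81.2 (sham) and 84.1 FPKM (tenotomy) at 7 days and 63.2 and 64.9 FPKM at 6 months, and Psma2 at 59.5 (sham) and 65.5 FPKM (tenotomy) at 7 days and 47.4 and 47.2 FPKM at 6 months. In these genes the libraries of an age were nearly level, with a largest log2 ratio of 0.14, that of Psma2 at 7 days. Psma1 stood at 59.5 (sham) and 51.4 FPKM (tenotomy) at 7 days and 32.0 and 37.3 FPKM at 6 months, and Psma5 at 50.5 (sham) and 44.1 FPKM (tenotomy) at 7 days and 30.5 and 34.7 FPKM at 6 months. These had the lower tenotomy value at 7 days and the higher at 6 months. The median log2 ratio of the 7 alpha subunits was -0.21 at 7 days and -0.0042 at 6 months, where that of all genes tested was 0.01 and -0.03. The 6-month alpha median was above 0, at 0.03 to 0.23, in each of 3 other scalings of the libraries.

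Of the beta subunits, those that carry no cutting site were spread widely. Psmb4 stood at 134 (sham) and 126 FPKM (tenotomy) at 7 days and 135 and 109.9 FPKM at 6 months, and Psmb1 at 92.4 (sham) and 91.1 FPKM (tenotomy) at 7 days and 78.0 and 58.8 FPKM at 6 months. Both were nearly level at 7 days and lower after tenotomy at 6 months. Psmb2 stood at 38.4 (sham) and 27.9 FPKM (tenotomy) at 7 days and 17.9 and 21.5 FPKM at 6 months, lower after tenotomy at 7 days and higher at 6 months. Psmb3 (chr11:97703434-97713500, mm10) stood at 82.2 (sham) and 75.2 FPKM (tenotomy) at 7 days and 73.6 and 33.8 FPKM at 6 months. The 6-month tenotomy library was the low value, less than the other 3 libraries, which lay between 73.6 and 82.2 FPKM. Psmb3 had the lowest 6-month log2 ratio of all 49 genes, -1.10 (raw log2 ratio -1.12, 95% counting interval -1.69 to -0.58), after -0.13 at 7 days. It is the only standard subunit past 2-fold at either age, and with the libraries scaled to a common sum without muscle genes and small RNAs its 6-month log2 ratio was -0.87. Near-identical copies of its sequence lie elsewhere in the genome, and the sources used here do not say how reads were shared with them.

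The 3 catalytic beta subunits were all lower after tenotomy in FPKM as deposited. Psmb5 (chr14:54614120-54617995), which carries the chymotrypsin-like site, stood at 79.6 (sham) and 61.1 FPKM (tenotomy) at 7 days and 85.5 and 51.8 FPKM at 6 months. Psmb6 (chr11:70525357-70527858), with the caspase-like site, stood at 82.7 (sham) and 68.0 FPKM (tenotomy) at 7 days and 66.7 and 61.3 FPKM at 6 months. Psmb7 (chr2:38588046-38643906), with the trypsin-like site, stood at 107 (sham) and 67.1 FPKM (tenotomy) at 7 days and 144 and 77.2 FPKM at 6 months. In each of them the tenotomy FPKM was below the sham FPKM at both ages, by the most in Psmb7 and by the least in Psmb6 at 6 months. With the libraries scaled to a common sum without muscle genes and small RNAs, Psmb6 at 6 months turned to a log2 ratio of 0.11. The raw log2 ratio of Psmb7 was -0.68, 95% counting interval -0.94 to -0.41 at 7 days and -0.90, 95% counting interval -1.18 to -0.61 at 6 months. That of Psmb5 was -0.38, 95% counting interval -0.76 to 0.01 at 7 days and -0.72, 95% counting interval -1.19 to -0.25 at 6 months. Psmb5 has a near-identical copy and overlaps the entry of a small RNA, and how reads were shared with them is not known. The same limit holds for the ratios below that include Psmb5. The intervals of Psmb6 included 0 at both ages (raw log2 ratio -0.28, 95% counting interval -0.65 to 0.07 at 7 days and -0.12, 95% counting interval -0.60 to 0.34 at 6 months).

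The immunoproteasome subunits, which take the places of these 3 subunits in newly built cores, were far less abundant. Psmb8 (chr17:34198195-34201454), which replaces Psmb5, stood at 7.58 (sham) and 8.59 FPKM (tenotomy) at 7 days and 4.87 and 10.8 FPKM at 6 months. Psmb9 (chr17:34182099-34187330), which replaces Psmb6, stood at 4.82 (sham) and 7.94 FPKM (tenotomy) at 7 days and 4.55 and 4.72 FPKM at 6 months. Psmb10 (chr8:105935728-105938392), which replaces Psmb7, stood at 11.4 (sham) and 13.3 FPKM (tenotomy) at 7 days and 4.14 and 11.5 FPKM at 6 months. All 3 were higher after tenotomy at each age, but by little for Psmb8 and Psmb10 at 7 days and for Psmb9 at 6 months. The 6-month sham library held the lowest value of Psmb8, Psmb9 and Psmb10, and at 6 months Psmb9 was below 5 FPKM in both libraries.

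At 7 days the log2 ratios were 0.16 for Psmb8, 0.62 for Psmb9 and 0.21 for Psmb10, all within 2-fold. The intervals of the raw log2 ratio included 0 for each of the 3 genes, from -0.55 to 0.92 for Psmb8, from -0.23 to 1.71 for Psmb9 and from -0.45 to 0.89 for Psmb10. At 6 months Psmb10 had the highest log2 ratio of all 49 genes, 1.28 (raw log2 ratio 1.48, 95% counting interval 0.38 to 2.87). It rested on about 8.27 fragments in the sham library and 30.8 in the tenotomy library. Psmb8 reached 1.01 (raw log2 ratio 1.15, 95% counting interval 0.14 to 2.12), from about 12.5 and 37.3 fragments. Its ratio is just past the 2-fold limit, and Psmb9 had a raw log2 ratio of 0.06, 95% counting interval -1.23 to 1.52.

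A ratio of an immunoproteasome subunit to the subunit it replaces is taken within a library and does not depend on how libraries were scaled. Psmb8 made up 8.69% of Psmb8 plus Psmb5 in the 7-day sham library and 12.3% after tenotomy, and 5.39% and 17.3% at 6 months. Psmb9 made up 5.51% and 10.5% of Psmb9 plus Psmb6 at 7 days and 6.38% and 7.16% at 6 months. Psmb10 made up 9.59% and 16.5% of Psmb10 plus Psmb7 at 7 days and 2.79% and 13.0% at 6 months. All 6 shares were higher in the tenotomy library than in its sham library, and the Psmb9 share at 6 months differed by the least.

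Summed over the 3 pairs, the immunoproteasome share was 8.10% in the 7-day sham library (approximate 95% counting interval from pooled fragments, 6.45% to 10.1%). In the 7-day tenotomy library it was 13.2% (11.0% to 15.7%). At 6 months the summed share was 4.37% (2.94% to 6.18%) after sham and 12.4% (9.90% to 15.3%) after tenotomy. The intervals of sham and tenotomy did not overlap at either age, while those of the tenotomy libraries of both ages did. The ratio of immunoproteasome to standard catalytic mRNA was 1.72-fold higher after tenotomy at 7 days (95% counting interval 1.26 to 2.36) and 3.11-fold higher at 6 months (2.0 to 4.84). In FPKM as deposited, the standard catalytic subunits were lower after tenotomy and the immunoproteasome subunits higher. The former summed to 269.8 and 196 FPKM at 7 days and to 297 and 190.3 FPKM at 6 months (sham, tenotomy). The latter summed to 23.8 and 29.8 FPKM at 7 days and to 13.5 and 27.1 FPKM at 6 months. The part of each side in the ratio depends on how libraries were scaled, which is unknown, while the ratio itself does not. At 7 days the counting interval of each immunoproteasome subunit allowed either direction. Whether the difference between the ages exceeds the spread between animals was not tested.

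**Figure D2:**
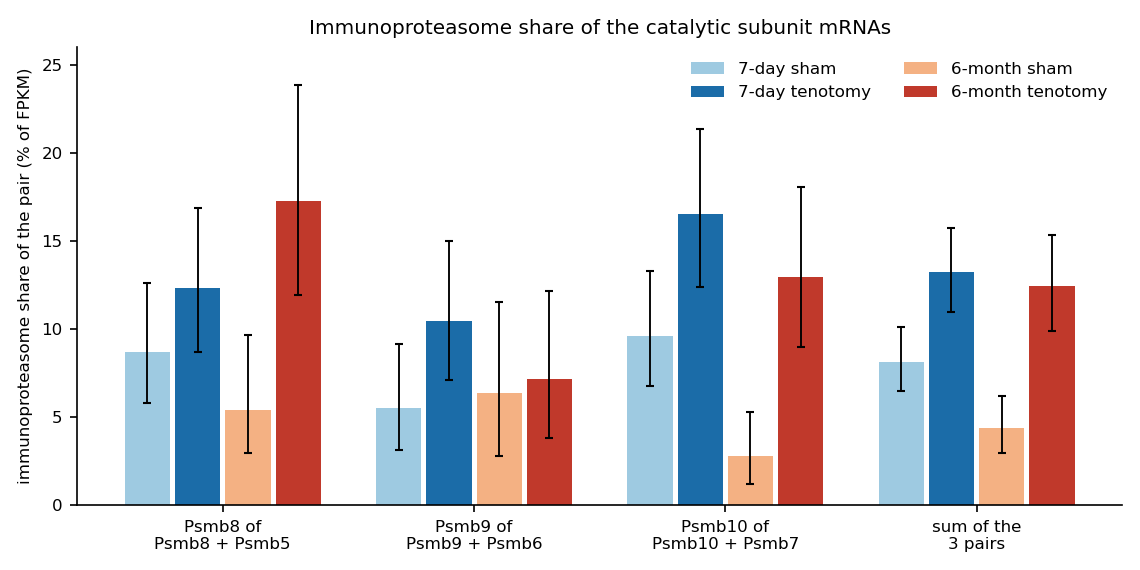
Share (% of FPKM) of each immunoproteasome subunit in the sum of itself and the catalytic subunit it replaces, and of the 3 pairs summed, in the 4 libraries. Bars are single libraries and error bars are 95% counting intervals. The tenotomy bar is above its sham bar in each pair, and the summed share is 13.2% and 12.4% after tenotomy against 8.10% and 4.37% after sham.

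The sequences around the starts of these genes are given because the genes exchanged for each other lie in different genomic settings, and, for the pairs of Psmb8 with Psmb5 and Psmb9 with Psmb6, hold different motifs of those searched. Psmb7, the partner of Psmb10, had no promoter entry, so that this pair was not compared. Psmb8 and Psmb9 lie 10864 bases apart on chromosome 17, in the MHC region, with the peptide transporter gene Tap1 between them, 969 bases from Psmb8 and 225 bases from Psmb9. Psmb10, Psmb5 and Psmb6 lie on chromosomes 8, 14 and 11. Promoters (250 bases before and 50 after the start of the gene) were taken from RefSeq, build GRCm38.p6, which has the coordinates of mm10, and 41 of the 49 genes had an entry. The following are 5′ to 3′ on the strand of the gene, with motif matches in capitals, at chr17:34197945-34198244 (plus strand), chr17:34187281-34187580 (minus), chr8:105938343-105938642 (minus), chr14:54617946-54618245 (minus) and chr11:70525107-70525406 (plus).
Psmb8: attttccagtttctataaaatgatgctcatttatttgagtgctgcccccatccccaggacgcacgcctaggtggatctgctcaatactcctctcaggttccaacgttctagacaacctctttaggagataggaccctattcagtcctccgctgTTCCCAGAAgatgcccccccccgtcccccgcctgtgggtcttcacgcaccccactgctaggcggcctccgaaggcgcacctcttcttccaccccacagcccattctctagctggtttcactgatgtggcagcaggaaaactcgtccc
Psmb9: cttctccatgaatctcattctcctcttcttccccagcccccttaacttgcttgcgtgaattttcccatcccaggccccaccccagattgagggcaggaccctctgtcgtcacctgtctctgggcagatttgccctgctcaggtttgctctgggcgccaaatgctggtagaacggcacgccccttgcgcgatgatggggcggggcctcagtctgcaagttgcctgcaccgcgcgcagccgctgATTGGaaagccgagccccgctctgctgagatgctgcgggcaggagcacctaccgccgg
Psmb10: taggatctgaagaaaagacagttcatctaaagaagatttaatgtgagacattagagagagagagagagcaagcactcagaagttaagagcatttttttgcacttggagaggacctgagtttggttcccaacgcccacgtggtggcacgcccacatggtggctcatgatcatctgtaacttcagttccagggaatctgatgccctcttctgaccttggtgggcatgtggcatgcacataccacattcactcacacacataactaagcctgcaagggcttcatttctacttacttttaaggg
Psmb5: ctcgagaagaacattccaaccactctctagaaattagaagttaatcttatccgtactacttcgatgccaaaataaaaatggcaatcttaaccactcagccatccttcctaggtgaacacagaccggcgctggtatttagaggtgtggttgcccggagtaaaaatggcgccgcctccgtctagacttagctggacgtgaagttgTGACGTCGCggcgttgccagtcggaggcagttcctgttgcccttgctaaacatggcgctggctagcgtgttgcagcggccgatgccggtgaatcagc
Psmb6: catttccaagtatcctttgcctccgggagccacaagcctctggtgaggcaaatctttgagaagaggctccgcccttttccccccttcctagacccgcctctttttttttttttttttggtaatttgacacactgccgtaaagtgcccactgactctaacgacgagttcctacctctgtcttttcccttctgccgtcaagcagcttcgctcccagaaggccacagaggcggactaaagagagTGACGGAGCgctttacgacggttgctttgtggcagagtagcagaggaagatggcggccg

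In capitals, Psmb8 holds a gamma-activated site, the letters TTCNNNGAA known from genes that respond to interferons, whose first base lies 97 bases before the start. Psmb9 holds a CCAAT box on the reverse strand, read as ATTGG. Psmb5 and Psmb6 hold the core of the antioxidant response element, TGACNNNGC, the kind of element through which Nfe2l1 acts, and Psmb10 holds none of the motifs searched. All were searched on both strands, together with the interferon-stimulated response element core GAAANNGAAA, and none of the spelled motifs contains another. Counted per gene over 27025 genes with a promoter of the same length, 9.55% held the gamma-activated site, 3.99% the interferon-stimulated element, 14.0% the antioxidant element and 41.1% the CCAAT box. Of the 25 standard subunits with an entry, 1 held the gamma-activated site, 2 the interferon-stimulated element, 4 the antioxidant element (Psmb5, Psmb6, Psmc6 and Psmd12) and 10 the CCAAT box. The counts for the antioxidant element and the CCAAT box were near the shares over all genes. A match is a run of letters and not a bound site, and other positions were not searched.

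The ATPase subunits of the cap form the ring that unfolds substrates and feeds them into the core. Psmc3 stood at 87.6 (sham) and 73.4 FPKM (tenotomy) at 7 days and 84.6 and 59.5 FPKM at 6 months. Psmc1 stood at 57.1 (sham) and 36.4 FPKM (tenotomy) at 7 days and 42.9 and 26.4 FPKM at 6 months, and Psmc2 at 49.3 (sham) and 33.0 FPKM (tenotomy) at 7 days and 41.3 and 36.4 FPKM at 6 months. In all 3 the tenotomy library was the lower at each age. Psmc4 stood at 41.3 (sham) and 29.9 FPKM (tenotomy) at 7 days and 28.7 and 27.9 FPKM at 6 months, Psmc5 at 46.7 (sham) and 42.2 FPKM (tenotomy) at 7 days and 51.4 and 35.8 FPKM at 6 months and Psmc6 at 40.2 (sham) and 30.5 FPKM (tenotomy) at 7 days and 37.0 and 27.1 FPKM at 6 months. These too were lower after tenotomy, Psmc4 almost level at 6 months. The largest difference of the ring was that of Psmc1, with a raw log2 ratio of -0.65, 95% counting interval -0.95 to -0.35 at 7 days and -0.70, 95% counting interval -1.13 to -0.28 at 6 months.

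Of the non-ATPase subunits, Psmd4 is a receptor for ubiquitin chains and Psmd14 the enzyme that cuts the chains off. Psmd4 stood at 49.2 (sham) and 29.9 FPKM (tenotomy) at 7 days and 61.0 and 43.7 FPKM at 6 months, and Psmd14 at 49.7 (sham) and 36.9 FPKM (tenotomy) at 7 days and 33.5 and 29.4 FPKM at 6 months. Both were lower after tenotomy, with a smaller gap at 6 months. The large scaffold subunits Psmd1 and Psmd2 stood at 39.2 (sham) and 36.0 FPKM (tenotomy) at 7 days and 44.2 and 32.6 FPKM at 6 months and at 75.3 (sham) and 55.8 FPKM (tenotomy) at 7 days and 94.7 and 58.3 FPKM at 6 months. Psmd1 was nearly level at 7 days, and Psmd2, the most abundant of the group, had a raw log2 ratio of -0.43, 95% counting interval -0.61 to -0.25 at 7 days and -0.70, 95% counting interval -0.90 to -0.50 at 6 months.

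The lid subunits Psmd6 and Psmd12 had the lowest 7-day log2 ratios of all 49 genes. Psmd6 stood at 56.0 (sham) and 31.2 FPKM (tenotomy) at 7 days and 49.98 and 35.6 FPKM at 6 months, with a 7-day log2 ratio of -0.82 (raw log2 ratio -0.84, 95% counting interval -1.18 to -0.50). Psmd12 stood at 30.95 (sham) and 17.2 FPKM (tenotomy) at 7 days and 25.1 and 17.5 FPKM at 6 months, with a 7-day log2 ratio of -0.82 (raw log2 ratio -0.85, 95% counting interval -1.25 to -0.47). Both were lower after tenotomy at 6 months as well, with log2 ratios of -0.48 and -0.49. Psmd8 stood at 73.9 (sham) and 48.8 FPKM (tenotomy) at 7 days and 80.1 and 49.1 FPKM at 6 months, and Psmd11 at 45.5 (sham) and 32.1 FPKM (tenotomy) at 7 days and 52.1 and 34.6 FPKM at 6 months. Psmd7 stood at 39.2 (sham) and 32.5 FPKM (tenotomy) at 7 days and 52.6 and 36.1 FPKM at 6 months, Psmd3 at 39.4 (sham) and 32.0 FPKM (tenotomy) at 7 days and 30.5 and 30.2 FPKM at 6 months and Psmd13 at 36.7 (sham) and 36.5 FPKM (tenotomy) at 7 days and 32.1 and 23.5 FPKM at 6 months. In these lid subunits the tenotomy value was again the lower, except that Psmd13 at 7 days and Psmd3 at 6 months were nearly level.

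All 17 cap subunits with a Psm name had a log2 ratio below 0 at both ages. Their median log2 ratio was -0.42 at 7 days (lowest -0.82, highest -0.0073) and -0.48 at 6 months (lowest -0.70, highest -0.01). Cap subunits without a Psm name are left out here. Of these, Adrm1 had log2 ratios of -0.06 and -0.48, and Shfm1 of -0.06 and, at 6 months, 0.24. The 7-day medians of the ATPase and the non-ATPase subunits were both -0.42, and the 6-month medians were -0.47 and -0.48. The 14 core subunits had medians of -0.24 and -0.20, with 12 and 10 of 14 below 0. For the 31 standard subunits the median was -0.38 at 7 days and -0.43 at 6 months, with 29 and 27 genes below 0 and 26 below 0 at both ages. Of all genes tested, 4619 of 9424 were below 0 at 7 days and 4644 of 9001 at 6 months. Among those with a mean of at least 20 FPKM, 1436 of 3045 and 1487 of 2540 were. The interval of the raw log2 ratio lay wholly below 0 for 17 of 31 genes at each age, 10 of them at both, and wholly above 0 for 0. Of all genes tested that had a transcript length, small structural RNAs left out, 24% at 7 days and 27% at 6 months had an interval wholly below 0, and 24.5% and 22.6% one wholly above. Among those with a mean of at least 20 FPKM, 30.6% and 44.4% lay wholly below 0 and 35.7% and 28.2% wholly above, so that the 6-month count of standard subunits was not far from the share of abundant genes.

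The log2 ratios of the standard subunits lay close together. Their interquartile range was 0.34 at 7 days and 0.44 at 6 months, that of the cap 0.33 and 0.11, and that of all genes tested 0.77 and 1.01. Over genes with a mean of at least 20 FPKM it was 0.87 and 1.22. Medians over genes with at least 20 FPKM were 0.04 at 7 days and -0.20 at 6 months, so at 6 months abundant genes in general were lower in the tenotomy library.

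**Figure D3:**
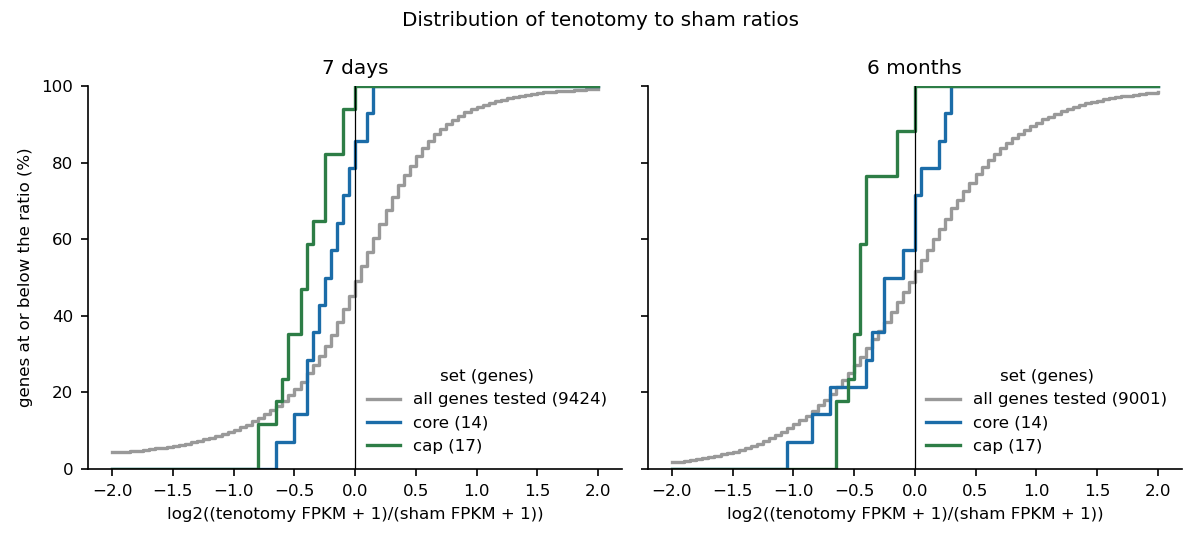
Percentage of genes (vertical axis) at or below each log2((tenotomy FPKM + 1)/(sham FPKM + 1)) (horizontal axis, drawn in steps) at 7 days (left) and 6 months (right), for all genes tested, the 14 core and the 17 cap subunits. Each curve compares 1 library with 1 library. The cap curve reaches 100% at 0 in both panels, where the curve of all genes is near its median (0.01 at 7 days and -0.03 at 6 months).

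The direction of these small differences moved with the scaling. With FPKM scaled to a common sum, 23 of 31 standard subunits were below 0 at each age, and 14 and 15 of the 17 cap subunits. With muscle genes and small RNAs left out of that sum, 27 and 20 standard subunits and 16 and 13 cap subunits were below 0, and the 6-month core median was 0.04. These scalings shifted the median log2 ratio of all genes by 0.16 and 0.05 at 7 days and by 0.05 and 0.25 at 6 months. Centred on the median of all genes tested, 29 and 25 standard and 17 and 16 cap subunits were below 0. Within a library, where scaling has no part, the summed level of alpha subunits over that of the cap was 0.561 and 0.662 at 7 days and 0.403 and 0.531 at 6 months (sham, tenotomy). This ratio, chosen after the values were seen, was higher after tenotomy by a log2 difference of 0.24 (95% counting interval 0.12 to 0.36) at 7 days and 0.40 (0.24 to 0.56) at 6 months. For all 14 core subunits over the cap the log2 difference was 0.20 (0.11 to 0.30) at 7 days and 0.13 (0.0011 to 0.25) at 6 months.

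Of the cap assembly chaperones, which help the ATPase ring to form, Psmd10 (gankyrin) stood at 11.2 (sham) and 10.8 FPKM (tenotomy) at 7 days and 5.73 and 12.2 FPKM at 6 months. The 6-month sham library was the low value and the other 3 lay between 10.8 and 12.2 FPKM. Its 6-month log2 ratio was 0.97 (raw log2 ratio 1.09, 95% counting interval 0.19 to 2.24), just short of the 2-fold limit, and it passed that limit in 3 other scalings. It rested on about 12.5 fragments in the sham library. Psmd5 stood at 14.7 (sham) and 15.2 FPKM (tenotomy) at 7 days and 11.4 and 8.93 FPKM at 6 months, and Psmd9 at 7.79 (sham) and 5.73 FPKM (tenotomy) at 7 days and 6.27 and 5.50 FPKM at 6 months. The intervals of both included 0 at both ages.

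The core assembly chaperones Psmg1 to Psmg4 help the alpha ring to form. Psmg1 stood at 13.6 (sham) and 13.5 FPKM (tenotomy) at 7 days and 6.33 and 6.78 FPKM at 6 months, Psmg2 at 7.28 (sham) and 10.9 FPKM (tenotomy) at 7 days and 5.79 and 8.59 FPKM at 6 months and Psmg3 at 5.15 (sham) and 7.07 FPKM (tenotomy) at 7 days and 4.31 and 4.48 FPKM at 6 months. Psmg2 was the higher in both tenotomy libraries, and Psmg1 was level at both ages. Psmg4 stood at 27.8 (sham) and 21.8 FPKM (tenotomy) at 7 days and 5.64 and 8.20 FPKM at 6 months. It was the only one of them with opposite directions of at least 1.25-fold at the 2 ages, and about 3.19 fragments were behind its 6-month sham value. The intervals of all 4 genes included 0 at both ages.

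Psme1 and Psme2 form the interferon-inducible activator that opens the core without ubiquitin, and they lie 2185 bases apart on chromosome 14. Psme1 (chr14:55578494-55585254) stood at 30.3 (sham) and 46.2 FPKM (tenotomy) at 7 days and 26.3 and 29.5 FPKM at 6 months. Psme2 (chr14:55587440-55591101) stood at 52.0 (sham) and 58.0 FPKM (tenotomy) at 7 days and 38.8 and 62.3 FPKM at 6 months. Both were higher after tenotomy at both ages, Psme1 by more at 7 days and Psme2 by more at 6 months. The raw log2 ratio of Psme1 was 0.61, 95% counting interval 0.06 to 1.20 at 7 days, and that of Psme2 was 0.68, 95% counting interval 0.18 to 1.23 at 6 months. The intervals of Psme1 at 6 months and of Psme2 at 7 days included 0. A near-identical copy, Psme2b, is annotated in the genome, and the tables used here hold no entry for it, so its reads and those of Psme2 may not have been told apart.

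The other activators Psme3 and Psme4 were lower after tenotomy in FPKM as deposited. Psme3 stood at 24.3 (sham) and 21.7 FPKM (tenotomy) at 7 days and 22.7 and 19.4 FPKM at 6 months. Psme4, which caps the core in nuclei and is known for its part in male germ cells and DNA repair, stood at 33.8 (sham) and 25.8 FPKM (tenotomy) at 7 days and 53.8 and 30.7 FPKM at 6 months. The tenotomy library was the lower for both at each age. Psme4 had raw log2 ratios of -0.39, 95% counting interval -0.56 to -0.21 at 7 days and -0.81, 95% counting interval -0.98 to -0.63 at 6 months, whereas both intervals of Psme3 included 0. The log2 ratio of Psme3 was -0.0033 at 7 days with libraries scaled to a common sum and 0.0069 at 6 months with muscle genes and small RNAs left out of that sum. Within a library, the level of Psme1 plus Psme2 over that of Psme3 was 3.38 and 4.81 at 7 days and 2.86 and 4.73 at 6 months (sham, tenotomy). It was 1.42-fold higher after tenotomy at 7 days (95% counting interval 1.05 to 1.93) and 1.65-fold higher at 6 months (1.12 to 2.44).

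The inhibitor Psmf1 stood at 4.92 (sham) and 6.84 FPKM (tenotomy) at 7 days and 4.65 and 4.06 FPKM at 6 months, under 5 FPKM in both 6-month libraries. The subunits of other tissues were near or at 0, as was Psmc3ip. Psma8, of the testis, was at most 0.550 FPKM and listed at 0 in the 7-day sham library, and Psmb11, of the thymus cortex, was at most 0.0924 FPKM and listed at 0 in both 6-month libraries. Psmc3ip lay between 0.391 and 1.06 FPKM.

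Counted over all members, 0 of 46 genes at the floor were at least 2-fold higher at 7 days, where 5.55% of all 9424 genes tested were, and 0 were at least 2-fold lower, where 10.3% were. At the 1.5-fold limit 2 were higher (Psmb9 and Psme1; 14.8% of all genes) and 6 lower (Psmb7, Psmc1, Psmd4, Psmd6, Psmd8 and Psmd12; 18.2%). At 6 months 2 of 43 were at least 2-fold higher, against 9.62% of 9001 genes tested, and 1 lower, against 11.9%. At the 1.5-fold limit 4 were higher (Psmb8, Psmb10, Psmd10 and Psme2; 19.9% of all genes) and 7 lower (Psmb3, Psmb5, Psmb7, Psmc1, Psmd2, Psmd8 and Psme4; 23.9%). The call in the authors' deposited tables says little about the members, since few genes were called at 7 days and none at 6 months. By that call, 90 genes in all differed at 7 days, where 9424 were tested here, and 0 at 6 months. Among them were 0 members, of 46 and 43 members that the authors tested. Their lowest p-value for a member in those deposited tables was 0.243 (Psmd6) at 7 days and 0.150 (Psmb3) at 6 months, with q-values of 0.998 and 0.984.

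**Figure D4:**
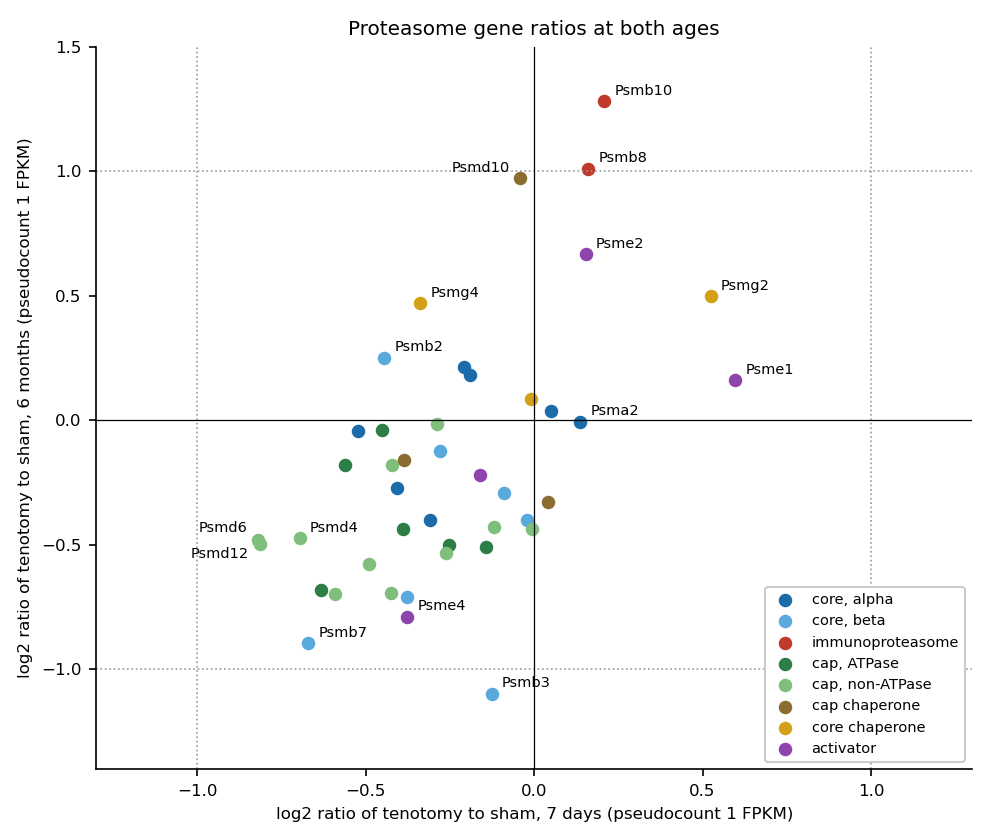
Log2 ratio of tenotomy to sham at 7 days (horizontal) against 6 months (vertical) for the 43 proteasome genes at the floor at both ages, coloured by role. Each point is 1 gene, and dotted lines mark 2-fold. Core and cap subunits gather in the lower left quadrant, where 26 of 31 lie, Psmb8 and Psmb10 lie at or above 1 at 6 months, and Psmb3 lies below -1.

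Between the ages, levels were set side by side as deposited, although the 2 tables may have been scaled separately. In the sham libraries 0 of 44 members were at least 2-fold higher at 6 months (6.67% of 9323 genes tested were) and 3 were at least 2-fold lower (13.1%), namely Psmb2, Psmb10 and Psmg4. In the tenotomy libraries 0 of 46 were higher (6.61% of 9201 genes) and 2 were lower (10.1%), namely Psmb3 and Psmg4. Psmg4 had the largest difference, with a log2 ratio of 6 months to 7 days of -2.12 after sham and -1.31 after tenotomy. The 7 alpha subunits were all lower at 6 months in both kinds of library, with median log2 ratios of -0.59 after sham and -0.37 after tenotomy. All genes tested had a median of -0.25 in each, and the cap subunits of -0.12 and -0.08. The core assembly chaperones, with medians of -0.64 after sham and -0.73 after tenotomy, lay below the alpha subunits. Psme4 and Psmb7 were higher in the 6-month sham library, by log2 ratios of 0.66 and 0.42.

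Of further proteasome partners without a Psm name, 18 were at the floor at 7 days and 17 at 6 months. Of these 0 were at least 2-fold higher after tenotomy at either age, against 5.55% and 9.62% of all genes, and 2 were at least 2-fold lower at 7 days and 0 at 6 months, against 10.3% and 11.9%. The ubiquitin receptor Adrm1, a cap subunit, stood at 34.3 (sham) and 32.8 FPKM (tenotomy) at 7 days and 39.6 and 28.1 FPKM at 6 months. The small cap subunit Shfm1 stood at 115 (sham) and 109.8 FPKM (tenotomy) at 7 days and 109 and 128 FPKM at 6 months. Both were nearly level at 7 days, and at 6 months Adrm1 was the lower and Shfm1 the higher after tenotomy. Pomp, the chaperone that completes the core, stood at 80.4 (sham) and 70.3 FPKM (tenotomy) at 7 days and 60.8 and 69.6 FPKM at 6 months. Among the lower genes was Zfand5, which is known to activate the proteasome in atrophying muscle. It stood at 22.0 (sham) and 9.94 FPKM (tenotomy) at 7 days and 33.5 and 20.1 FPKM at 6 months. Of the ubiquitin genes and E1 enzymes (6 at the floor at 7 days, 5 at 6 months) 0 passed 2-fold at either age. Ubb stood at 306 (sham) and 291 FPKM (tenotomy) at 7 days and 261 and 226 FPKM at 6 months.

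Nfe2l1, which drives subunit genes when the proteasome is limiting, stood at 79.6 (sham) and 45.9 FPKM (tenotomy) at 7 days and 148 and 60.7 FPKM at 6 months. It was lower in the tenotomy library at both ages, with log2 ratios of -0.78 and -1.27. Its relative Nfe2l2 stood at 15.6 (sham) and 17.2 FPKM (tenotomy) at 7 days and 16.6 and 25.01 FPKM at 6 months. Of the 9 genes of this pathway 0 passed 2-fold at 7 days, and at 6 months Nfe2l1 and its partner Mafk were lower (Mafk log2 ratio -1.32) and the repressor Bach1 higher (log2 ratio 1.02). Of all genes tested, 5.55% were higher and 10.3% lower by 2-fold at 7 days, and 9.62% and 11.9% at 6 months.

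Genes of MHC class I presentation, the pathway that the immunoproteasome serves, were at least 2-fold higher after tenotomy in 4 of 10 at 7 days and 5 of 11 at 6 months, against 5.55% and 9.62% of all genes tested. The 4 genes at 7 days were Tap1, B2m, Pdia3 and Calr, while the class I heavy chain gene H2-K1 had a log2 ratio of 0.48. All 10 and all 11 genes at the floor had a log2 ratio above 0. The remaining gene, Nlrc5, named after its values were seen, was below the floor at 7 days, at 1.78 (sham) and 1.27 FPKM (tenotomy). The median log2 ratios of the genes at the floor were 0.57 and 0.89. Tap1, the peptide transporter gene between Psmb8 and Psmb9, stood at 4.07 (sham) and 10.3 FPKM (tenotomy) at 7 days and 3.33 and 11.5 FPKM at 6 months. B2m, the class I light chain, stood at 153 (sham) and 316 FPKM (tenotomy) at 7 days and 98.9 and 209 FPKM at 6 months. Of 20 interferon response genes, 3 of 17 at the floor at 7 days and 5 of 13 at 6 months were higher by 2-fold or more. The shares of all genes tested were 5.55% and 9.62%. Lower by as much were 0 of these genes at either age, against 10.3% and 11.9% of all genes tested. With only 17 and 13 interferon response genes, a count of 0 is not far from those shares. Of the same genes, 4 at 7 days and 2 at 6 months had a log2 ratio below 0. Igtp, named after its values were seen, was among them at both ages, at 6.12 (sham) and 4.34 FPKM (tenotomy) at 7 days and 5.48 and 4.96 FPKM at 6 months. Irf1, a transcription factor of this response, stood at 8.83 (sham) and 11.4 FPKM (tenotomy) at 7 days and 6.87 and 12.2 FPKM at 6 months. Tap1, B2m and Irf1 were all higher after tenotomy at both ages, as were Psmb8 and Psmb10.

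Markers of other cells also differed between sham and tenotomy. Of 11 leukocyte markers, 10 were at least 2-fold higher after tenotomy at each age, against 5.55% and 9.62% of all genes tested. The summed level of the 11 markers was 359 and 1023 FPKM at 7 days and 449 and 1808 FPKM at 6 months (sham, tenotomy). Ptprc, the pan-leukocyte phosphatase, stood at 3.74 (sham) and 11.4 FPKM (tenotomy) at 7 days and 4.80 and 25.5 FPKM at 6 months. Of 10 lymphocyte markers 0 reached 5 FPKM in any library, and 7, 4, 7 and 5 of them were listed at 0 in the same order of libraries, Cd3d in all 4. Leukocytes are known to carry the immunoproteasome subunits, and the part of their number in the exchange of catalytic subunits was not tested.

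Muscle moved the other way. Acta1, skeletal muscle actin, stood at 6925 (sham) and 9.71 FPKM (tenotomy) at 7 days and 9234 and 1516 FPKM at 6 months. Of the 7 muscle atrophy genes, 0 were at least 2-fold higher at either age, against 5.55% and 9.62% of all genes tested. At least 2-fold lower were 2 at 7 days and 3 at 6 months, against 10.3% and 11.9%. A log2 ratio above 0 was seen for 1 of the 7 muscle atrophy genes at 7 days and 2 at 6 months. The muscle ubiquitin ligase Trim63 stood at 15.9 (sham) and 0 FPKM (tenotomy) at 7 days and 84.5 and 17.1 FPKM at 6 months, and Fbxo32 at 6.28 (sham) and 3.94 FPKM (tenotomy) at 7 days and 51.2 and 15.3 FPKM at 6 months. Trim63 was listed at 0 in the 7-day tenotomy library, so no fold is given for it there. The summed level of the muscle markers was lowest in the 7-day tenotomy library and highest in the 6-month sham library, and the part of muscle RNA in the lower levels of the standard subunits was not tested.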

How the data were processed

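Pooled Achilles tendon RNA gave 4 libraries, 1 per group, sequenced with paired 75-base reads from 10 ng of RNA after ribosomal RNA depletion, per the labels' protocols, which give RNA integrity values below 8 and a directional kit. Tools named in the submitters' processing notes are TopHat and Cufflinks, with mm10 as the genome build and no versions. For the annotation and any use of strand in counting, the sources used here give nothing. The authors deposited 1 gene table per age in the layout of a Cuffdiff comparison, and their FPKM values were taken as such from that layout, while how libraries were scaled to each other is unknown. Each gene also has a p-value and a q-value in the authors' deposited tables, used only as the authors' call, and with 1 pool per group they hold no spread between animals. The treatment labels call the tendons of all 4 pools uninjured, and pools were grouped by the operation the same labels name.

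Ratios used a pseudocount of 1 FPKM, a floor of 5 FPKM in either library and a limit of 2-fold, without a test. Depth came from the FPKM steps of GENCODE M21 genes with a single transcript of at least 800 bases, of which 70.9% to 72.8% had a whole number of fragments at low FPKM (tolerance 0.1). Fragments per gene are therefore approximate. Near-identical copies (at least 95% identity over 300 bases) were found with BLAST 2.17.0 for 12 members, and 7 members overlap another entry of the tables. Gene positions are those of the authors' tables with starts counted from 1. The members and gene lists were chosen with earlier results of these data known. Every member could be named. Other genes named were a set of marker and regulator genes and up to 3 genes per list with the largest log2 ratios past 2-fold at each age. A few of these genes are not reported here. Of the lists, those for tendon and cell cycle genes were summarised in the same way. A total of 13 alternative settings were planned and 1, without overlapping or copied subunits, was added after seeing the data. The calculations were tested on simulated data. The software was Python 3.11.15 with pandas 2.3.3, SciPy 1.17.1, NumPy 2.4.6, and for plots matplotlib 3.10.9.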

Additional observations from a re-analysis of the deposited data

Results flagged for a closer look

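Psmg4, a chaperone of core assembly, had a log2 ratio of tenotomy to sham of -0.34 at 7 days and 0.47 at 6 months. It was singled out because these ratios were of opposite sign and at least 1.25-fold at each age, and it was the only member at the floor at both ages for which this held. The difference between the ages was not tested. The 95% counting interval of the raw log2 ratio was -1.26 to 0.56 at 7 days and -1.65 to 3.21 at 6 months, where about 3.19 fragments lay behind the sham value.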

How the results depend on the processing

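The median log2 ratio of the 31 standard subunits stayed below 0 under every setting run. At 7 days it was -0.38 as reported, -0.21 with FPKM scaled to a common sum, -0.33 with muscle genes and small RNAs left out of that sum, and -0.24 for core subunits alone. At 6 months it was -0.43, and -0.20 both with muscle genes and small RNAs left out of the sum and for core subunits alone. Without the 12 standard subunits that overlap another entry or have a near-identical copy it was -0.39 and -0.40. At 7 days a 1.5-fold limit gave 2 members higher and 6 lower in place of 0 and 0. At 6 months the 2 higher members became 0 with a pseudocount of 5 FPKM, 0 with a floor of 20 FPKM, 0 by the authors' call and 4 with a 1.5-fold limit, and 3 with a pseudocount of 0.1 FPKM and in each of the 3 other scalings. The 1 lower member became 0 without muscle genes and small RNAs in the sum, 0 by the authors' call and 7 with a 1.5-fold limit. The authors' call uses another rule, and fewer genes pass the higher floor. With libraries scaled to a common sum the 2-fold calls over all genes were 754 higher and 813 lower at 7 days and 941 and 970 at 6 months. With muscle genes and small RNAs left out of the sum they were 577 and 912 at 7 days and 1293 and 684 at 6 months. The log2 change of the summed immunoproteasome ratio, 0.77 at 7 days and 1.58 at 6 months with the pseudocount, was 0.72 to 0.78 and 1.36 to 1.63 under its alternatives. A floor of 20 FPKM left no immunoproteasome subunit and gave no value. Leaving out a library was not possible with 1 per group. No paired analysis was possible because each group is 1 library. The low members Psmb9 and the core assembly chaperones had counting intervals that included 0 at both ages; intervals this wide limit what could be seen of small differences.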

Other observations

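Cell cycle genes were higher after tenotomy, with 2 of 8 at the floor at least 2-fold higher at 7 days (Plk1 and Birc5) and 6 of 7 at 6 months. Of all genes tested, 5.55% and 9.62% were higher by as much. Top2a, a topoisomerase of dividing cells, stood at 14.2 (sham) and 26.5 FPKM (tenotomy) at 7 days and 3.43 and 16.9 FPKM at 6 months. Birc5, an inhibitor of cell death active in mitosis, stood at 4.78 and 11.1 FPKM at 7 days and 1.43 and 6.96 FPKM at 6 months. The median log2 ratio of the list was 0.88 at 7 days and 1.68 at 6 months, while that of the standard proteasome subunits was -0.38 and -0.43. Of the 8 tendon markers, 1 was at least 2-fold higher (Thbs4) and 1 lower (Fmod) at 7 days, and 0 were higher and 4 lower at 6 months. Of all genes tested, 10.3% and 11.9% were lower by as much, so the 7-day count of lower tendon markers was near that share. Comp, a cartilage and tendon matrix protein, stood at 112 and 144 FPKM at 7 days and 1443 and 156 FPKM at 6 months.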
